A study of Homo sapiens with 33 samples.

Results

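The genes described here are the B-cell identity and pre-B receptor genes, a list of 39 symbols that covers the pre-B receptor, its co-receptors and signalling proteins, the transcription factors of the B lineage, the recombination enzymes and markers of the precursor stage. They were found by matching Ensembl identifiers to the listed symbols, and 38 of the 39 had a row among the 62446 gene rows of each count file. CD24 was not analysed here. Gene counts were made from 33 RNA-seq libraries in 11 groups of 3. Nalm6, a human B-cell precursor acute lymphoblastic leukaemia line, was grown in medium with 10% charcoal-stripped serum, in which steroids are depleted. The parental line was sampled untreated, after 24 h with 5 µM prednisolone, and after 24 h with 0.5 µM CHIR-99021, an inhibitor of glycogen synthase kinase 3 that activates Wnt signalling. A further untreated parental group is titled for dexamethasone and was set against parental cells given 100 nM dexamethasone for 24 h. The titles do not tie prednisolone to either untreated parental group, and it was set against the one without a drug in its title. Nalm6 edited with CRISPR/Cas9 at TLE1, which encodes a co-repressor, was sampled untreated, with 5 µM prednisolone and with 100 nM dexamethasone for 24 h. The dexamethasone-treated knockout group had no untreated group of its own and was set against the untreated knockout. CEM, a T-cell leukaemia line, served as the outside reference, untreated, with 2 µM CHIR-99021 and with 10 µM prednisolone.

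The series asks how glucocorticoid and Wnt signalling act on each other in acute lymphoblastic leukaemia. Both prednisolone and dexamethasone are agonists of the glucocorticoid receptor, and they differ here in dose and in the untreated parental group used as reference. Library sets below are named by that untreated group. The labels do not say whether the knockout is a clone or a pool of edited cells, and their treatment text assigns the drugs to the lines differently from the library titles, which were followed. The design text describes 3 independent experiments for CHIR-99021 and for prednisolone in the knockout. For the other groups nothing says that the libraries came from separate cultures, so p-values measure the spread between these libraries, which may be technical. In bulk RNA, fewer cells that express a gene and less RNA per cell cannot be told apart.

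In a pre-B cell, the immunoglobulin heavy chain pairs with a surrogate light chain made of VPREB1 and IGLL1 and reaches the surface with CD79A and CD79B, which carry the signal inwards through SYK, LYN, BLK, BLNK, BTK and PLCG2. PAX5, EBF1, TCF3 and IKZF1 hold the B-lineage programme, RAG1, RAG2 and DNTT rearrange the immunoglobulin genes, and PRDM1 drives the exit towards the plasma cell. Glucocorticoids kill many precursor B-cell leukaemias and are part of their standard treatment.

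The regions upstream of 5 of the genes are shown because the surrogate light chain genes and VPREB3 moved opposite to CD79A with glucocorticoid (values below). PRDM1 had the largest rise. RefSeq windows of 300 bases on GRCh38.p14, from 250 bases before to 50 after the annotated start, were found for 30 of the 39 listed genes. The windows are VPREB1 at chr22:22244536-22244835 on the plus strand, VPREB3 at chr22:23754376-23754675 and IGLL1 at chr22:23580241-23580540 on the minus strand, CD79A at chr19:41877029-41877328 and PRDM1 at chr6:106086086-106086385 on the plus strand. Each is written 5′ to 3′ on the strand of its gene. Capitals mark the E-box CAGGTG, the preferred letters of E2A, the protein of TCF3, and the octamer ATGCAAAT, bound by the partner proteins of POU2AF1. Both were searched on both strands.
VPREB1: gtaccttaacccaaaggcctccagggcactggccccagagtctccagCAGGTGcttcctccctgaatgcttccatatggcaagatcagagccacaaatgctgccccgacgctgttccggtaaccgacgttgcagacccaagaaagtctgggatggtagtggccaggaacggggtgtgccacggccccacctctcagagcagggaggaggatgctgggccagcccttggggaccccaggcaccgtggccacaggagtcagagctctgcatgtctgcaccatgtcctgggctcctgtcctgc
VPREB3: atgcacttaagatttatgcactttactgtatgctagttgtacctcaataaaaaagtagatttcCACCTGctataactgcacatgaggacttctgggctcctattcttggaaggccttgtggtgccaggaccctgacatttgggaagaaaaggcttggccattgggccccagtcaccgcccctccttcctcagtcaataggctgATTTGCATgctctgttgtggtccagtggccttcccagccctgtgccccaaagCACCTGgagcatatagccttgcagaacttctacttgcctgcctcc
IGLL1: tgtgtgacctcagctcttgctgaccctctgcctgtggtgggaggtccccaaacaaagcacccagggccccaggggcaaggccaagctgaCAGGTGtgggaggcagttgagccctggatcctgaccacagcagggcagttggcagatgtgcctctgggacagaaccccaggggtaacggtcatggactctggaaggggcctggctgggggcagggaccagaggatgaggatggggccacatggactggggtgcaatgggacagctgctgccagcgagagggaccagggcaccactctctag
CD79A: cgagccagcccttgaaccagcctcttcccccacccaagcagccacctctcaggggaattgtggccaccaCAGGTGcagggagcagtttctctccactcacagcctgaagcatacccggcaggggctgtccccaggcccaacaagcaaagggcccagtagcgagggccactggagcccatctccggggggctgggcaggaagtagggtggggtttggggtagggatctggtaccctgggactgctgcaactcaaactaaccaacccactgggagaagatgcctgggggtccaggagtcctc
PRDM1: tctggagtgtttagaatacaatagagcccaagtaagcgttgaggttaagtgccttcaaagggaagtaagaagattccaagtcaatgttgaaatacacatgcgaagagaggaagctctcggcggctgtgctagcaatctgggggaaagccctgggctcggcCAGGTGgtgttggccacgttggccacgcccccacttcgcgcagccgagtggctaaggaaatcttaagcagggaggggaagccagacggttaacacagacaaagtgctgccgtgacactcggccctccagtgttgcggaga

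All 5 windows hold the E-box letters. Over the 30 members with a window, 12 held them (40%), against 20.6% of all 35116 windows of the same length. The octamer was found in the VPREB3 window alone among the 30, in which it begins 47 bases before the start, and in 1.77% of all windows. The EBF1 letters TCCCNNGGG were in none of the 30 and in 8.86% of all windows, and the ETS core GAGGAA was in 12 of the 30 and in 27.9% of all. The letters are a description of these windows and were not tied to any value below. Matches of these motifs do not overlap in the windows shown.

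**Figure D1:**
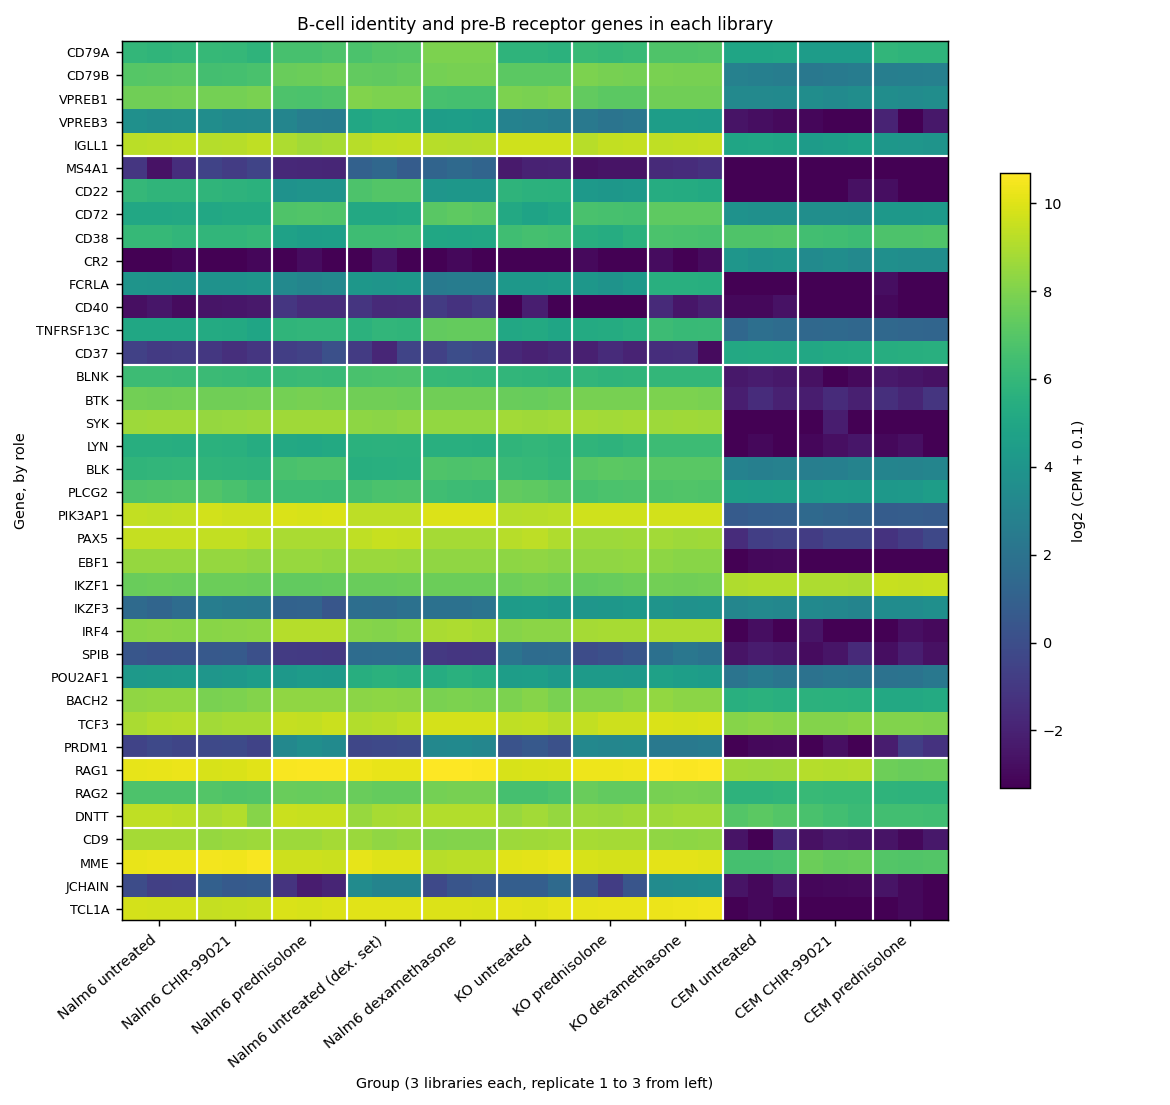
Levels of the 38 genes in each of the 33 libraries, as log2 (CPM + 0.1, with CPM for counts per 1000000 assigned counts) in colour, with genes in rows by role and libraries in columns by group. The Nalm6 and knockout columns are alike in most rows, and the CEM columns are dark for BLNK, BTK, SYK, LYN, PAX5, EBF1, IRF4, CD9 and TCL1A.

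Library totals ran from 25292579 to 61930057 counts assigned to genes, on the strand with 12.26 to 15.33 times the counts of the other. The summed level of 10 B-cell precursor markers was 4580 to 5400 CPM (counts per 1000000 counts assigned to genes) over the Nalm6 and knockout libraries, and none of the 10 averaged under 1 CPM there. The same sum was 480 to 919 CPM in CEM. The 16 T-cell markers summed to 90.8 to 166 CPM in Nalm6 and the knockout, most of it ZAP70, and to 2720 to 2920 CPM in CEM. TLE1 transcripts were present in the knockout, at 25.4, 24.0 and 24.0 CPM untreated against 30.2, 34 and 31.8 CPM in the parental line. With prednisolone they stood at 54.5 to 69.0 CPM in the knockout and 110 to 116 CPM in the parental line. A gene-level count does not check an edit that leaves the transcript in place, and TLE1 protein was not analysed here.

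Untreated Nalm6 held the surrogate light chain genes among its most abundant listed transcripts. Per kb of annotated exon, IGLL1 was the most abundant of the 38 transcripts at 688 ± 28.7 CPM per kb (SD, n = 3), followed by TCL1A, a co-activator of AKT, at 383 ± 6.39 and DNTT, the terminal transferase, at 327 ± 12. VPREB1, the other surrogate light chain gene, reached 268 ± 5.21 CPM per kb and RAG1 154 ± 4.53. IGLL1 shares sequence with IGLL5 and the lambda constant genes, and how the counting divided reads among them is uncertain.

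The membrane endopeptidase gene MME (CD10), the adaptor PIK3AP1 and the tetraspanin CD9 followed at 129, 118 and 108 CPM per kb. TCF3 and SYK, at 86.4 and 79.0, overlapped between libraries, whereas PAX5, at 75.8 ± 0.345, lay below SYK in every library. CD79B stood at 64.0, EBF1 at 58.1, IRF4 at 51.2, BTK at 45.4 and CD79A at 39.9 CPM per kb, with no overlap between neighbours. The middle of the order held BACH2, RAG2, BLNK, VPREB3, IKZF1, BLK, CD72, CD22, CD38, PLCG2, TNFRSF13C, LYN, FCRLA and POU2AF1, from 34.9 down to 2.67. The last 8 genes, each under 0.5 CPM per kb, were JCHAIN, SPIB, IKZF3, CD37, PRDM1, MS4A1 (CD20), CD40 and CR2, of which most mark later B-cell stages or plasma cells. CR2 had 1 count in all 3 libraries together.

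CEM served as the contrast for lineage. Of the 36 genes tested against untreated Nalm6, 36 passed an adjusted p of 0.05 in edgeR's quasi-likelihood test, 31 lower and 5 higher in CEM, with a median log2 difference of -3.63. Over all genes 82.8% were called (42.5% higher and 40.3% lower), with a median of 0. The list was made of B-lineage genes, and 17 of them averaged under 1 CPM in untreated CEM. Most being lower in a T-cell line was thus set by the choice of genes. In CEM, SYK, CD22, FCRLA and MS4A1 had no count in any of the 3 untreated libraries. Taken at 3 counts per library, this puts SYK at least 5630-fold lower than in Nalm6, CD22 at least 812-fold, FCRLA at least 200-fold and MS4A1 at least 3.16-fold.

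TCL1A had 1 count in untreated CEM and EBF1 and IRF4 had 2 each. The ratio of Nalm6 to CEM was 22500 for EBF1 (95% counting interval 6240 to 186000) and 18900 for IRF4 (5240 to 156000), and these intervals cover counting error only. PAX5, the B-lineage commitment factor, had 54 counts in CEM and 119085 in Nalm6, a ratio of 1640 (1260 to 2190). The difference was smaller for RAG1 and TCF3, which immature T cells also use, and for CD79A. RAG1 measured 418, 393 and 415 CPM in CEM against 1170, 1200 and 1240 in Nalm6, TCF3 280, 307 and 285 against 487, 533 and 557, and CD79A 30.2, 29.6 and 31.0 against 61.6, 57.4 and 61.1. The 5 genes higher in CEM were IKZF1, IKZF3, CD38, CR2 and CD37. IKZF1 was at 520, 541 and 535 CPM there against 183, 186 and 182.

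Prednisolone moved the surrogate light chain and the signalling chains of the pre-B receptor in opposite directions in the parental line. VPREB1 fell from 203, 199 and 206 CPM to 112, 104 and 114, and IGLL1 from 598, 619 and 649 to 500, 434 and 465. VPREB3, outside the surrogate light chain as described above, fell from 12.8, 11.8 and 12.2 CPM to 8.15, 6.21 and 6.12. CD79A rose from 61.6, 57.4 and 61.1 CPM to 96.4, 99.0 and 110, and CD79B from 129, 133 and 137 to 182, 188 and 201. In none of the 5 did treated and untreated libraries overlap. The log2 fold changes were -0.91 ± 0.04 (SE) for VPREB1 (edgeR adjusted p = 1.34e-11), -0.90 ± 0.09 for VPREB3 (2.08e-07) and -0.44 ± 0.05 for IGLL1 (8.26e-07). They were 0.74 ± 0.05 for CD79A (edgeR adjusted p = 3.14e-09) and 0.49 ± 0.04 for CD79B (4.34e-08).

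Dexamethasone, set against the untreated libraries titled for it, gave the same directions. VPREB1 fell from 263, 247 and 246 CPM to 98.7, 95.0 and 95.5, and VPREB3 from 33.3, 38.7 and 37.9 to 22.0, 23.1 and 21.6. IGLL1 fell from 590, 650 and 676 CPM to 589, 568 and 579, so that the lowest untreated and the highest treated library nearly met. CD79A rose from 105, 122 and 126 CPM to 244, 244 and 247. The log2 changes were -1.42 ± 0.04 for VPREB1, -0.75 ± 0.06 for VPREB3, -0.18 ± 0.04 for IGLL1, 1.02 ± 0.05 for CD79A and 0.44 ± 0.04 for CD79B, with edgeR adjusted p from 2.33e-12 to 0.00324.

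Across the list, 30 of the 37 genes tested passed with prednisolone, 14 higher and 16 lower, and 7 of them at 2-fold or more. Over all 18658 genes tested, 54.8% passed (28.7% higher, 26.1% lower) and 8.78% did so at 2-fold or more. With dexamethasone 29 of 37 passed, 12 higher and 17 lower, and 11 at 2-fold or more. Among all 17217 genes the shares were 60.5% (30.2% higher, 30.2% lower) and 11.2%. The list's median log2 change was -0.04 with prednisolone and 0 with dexamethasone, against 0.03 and 0.02 over all genes. Its median absolute change was 0.54 and 0.52, against 0.28 and 0.32.

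No sample is shared by the prednisolone and dexamethasone comparisons. Of the 27 listed genes called in both, 26 changed in the same direction, and among all 8264 genes called in both 99.1% did. The exception was TCL1A, at 0.12 ± 0.04 with prednisolone and -0.16 ± 0.04 with dexamethasone. Its call with prednisolone was lost without untreated library 2 or 3 or without prednisolone library 1 or 3 (edgeR adjusted p = 0.0759 to 0.174).

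**Figure D2:**
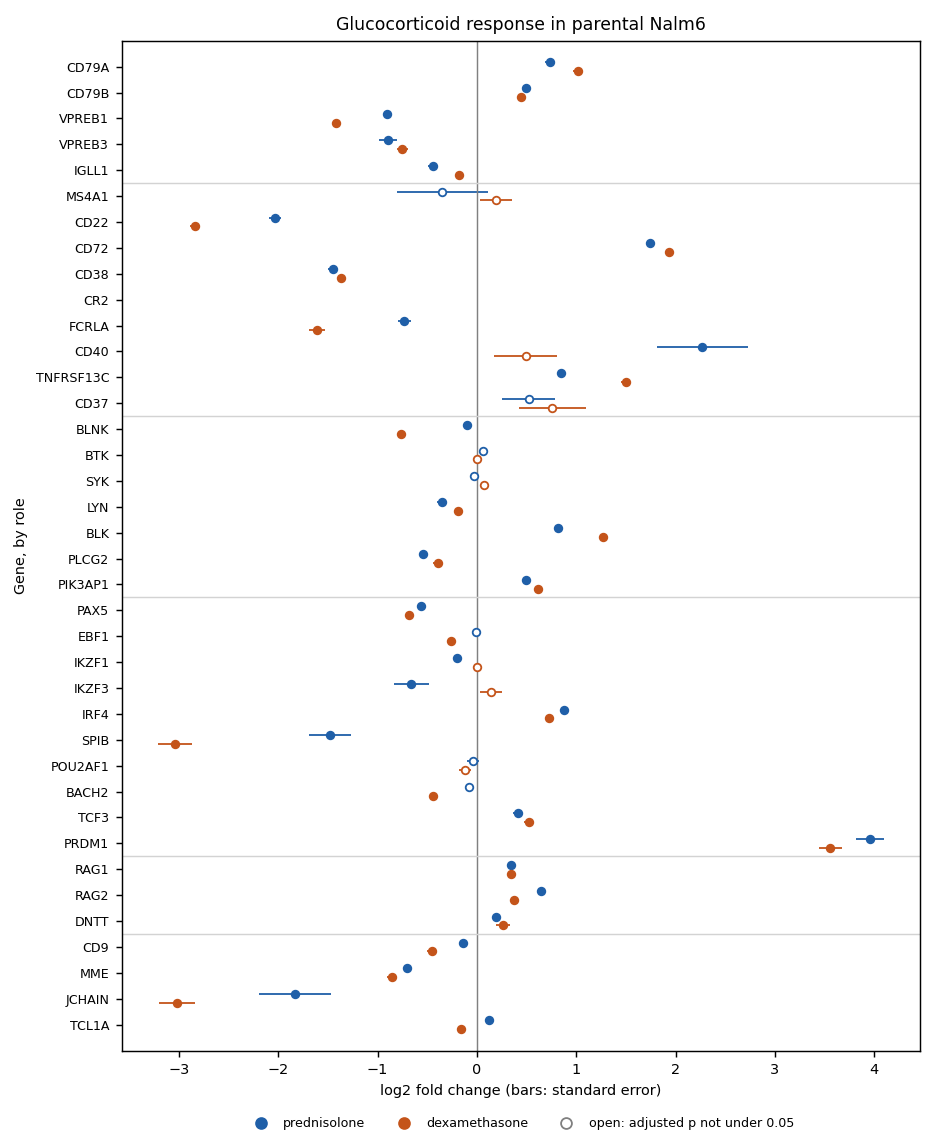
Log2 fold changes with standard errors of the listed genes in parental Nalm6 with 5 µM prednisolone and 100 nM dexamethasone, the first against the untreated Nalm6 libraries and the second against the untreated libraries titled for it, with open points for genes that did not pass. PRDM1 and CD72 lie far to the right and CD22, SPIB and JCHAIN far to the left with both drugs.

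The co-receptors split in both drugs. CD22, an inhibitory receptor that binds sialic acid, fell from 63.7, 57.1 and 57.3 CPM to 14.2, 14.9 and 15.2 with prednisolone, a log2 change of -2.03 ± 0.06 (edgeR adjusted p = 8.33e-15). With dexamethasone it went from 111, 122 and 123 CPM to 16.4, 17.2 and 17.3, or -2.84 ± 0.05. CD72, another inhibitory receptor with a motif that recruits phosphatase, went the other way, from 33.6, 33.3 and 35.6 CPM to 115, 117 and 116 with prednisolone (1.74 ± 0.04, edgeR adjusted p = 1.58e-15). With dexamethasone CD72 rose from 35.8, 35.8 and 37.2 CPM to 139, 147 and 140, or 1.93 ± 0.04. The treated CD22 and CD72 libraries lay far outside the untreated range in both sets.

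TNFRSF13C, the receptor for the survival factor BAFF, rose by 0.85 ± 0.04 with prednisolone, from 32.3, 32.0 and 32.8 CPM to 57.7, 60.7 and 59.5. Dexamethasone took it from 51.7, 59.4 and 58.2 CPM to 158, 167 and 164, a log2 change of 1.5 ± 0.05. CD38, an ectoenzyme, fell from 66.7, 66.4 and 60.6 CPM to 25.8, 23.1 and 23.8 with prednisolone and from 80.8, 80.7 and 83.7 to 32.0, 31.8 and 33.4 with dexamethasone. FCRLA, an intracellular Fc receptor-like protein, fell in both, by 0.73 ± 0.07 and by 1.61 ± 0.08 on the log2 scale. CD40 had 0.0348 to 0.0816 CPM untreated and 0.239 to 0.373 with prednisolone, which passed (2.27 ± 0.46), and did not pass with dexamethasone (0.49 ± 0.32). MS4A1 and CD37 did not pass with either drug, and CR2 was too low to test.

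Among the kinases and adaptors, BLK and PIK3AP1 rose and LYN, PLCG2 and BLNK fell with both drugs, while SYK and BTK did not pass with either. BLK, a SRC-family kinase of the B lineage, went from 58.0, 58.8 and 61.1 CPM to 103, 108 and 110 with prednisolone (0.82 ± 0.04) and from 44.0, 45.2 and 47.9 to 113, 111 and 115 with dexamethasone (1.27 ± 0.04). LYN, the SRC-family kinase that both starts and dampens receptor signalling, changed by -0.35 ± 0.05 and -0.19 ± 0.04. PLCG2, the phospholipase downstream of BTK, changed by -0.54 ± 0.04 and -0.39 ± 0.05.

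BLNK, the adaptor that links SYK to BTK and PLCG2, fell by 0.77 ± 0.04 with dexamethasone, from 102, 106 and 111 CPM to 66.0, 63.9 and 61.7. With prednisolone it fell by 0.10 ± 0.04 (edgeR adjusted p = 0.0402) with overlapping libraries, and that call was lost without untreated library 1, 2 or 3 or prednisolone library 1 (0.0609 to 0.127). PIK3AP1, which links the receptor complex to PI3 kinase, rose from 680, 659 and 677 CPM to 972, 937 and 969 with prednisolone. It changed by 0.49 ± 0.04 there and by 0.61 ± 0.04 with dexamethasone. SYK stood at 400, 421 and 415 CPM untreated and 408, 411 and 412 with prednisolone.

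The transcription factors gave the widest range. PRDM1, the repressor that ends the B-cell programme in plasma cells, rose from 0.614, 0.755 and 0.662 CPM to 9.16, 12.3 and 10.4 with prednisolone, a 15.6-fold rise (log2 3.96 ± 0.14, edgeR adjusted p = 1.75e-13). With dexamethasone it rose 11.8-fold, from 0.704, 0.769 and 0.807 CPM to 9.25, 9.84 and 8.52. PAX5, which PRDM1 represses in plasma cells, fell from 704, 709 and 710 CPM to 490, 485 and 489 with prednisolone (-0.56 ± 0.04). With dexamethasone PAX5 fell from 662, 741 and 707 CPM to 448, 455 and 448 (-0.68 ± 0.04). A link between the PRDM1 and PAX5 changes was not tested. The summed level of 6 plasma cell markers was 870 to 893 CPM untreated and 940 to 980 with prednisolone. In the dexamethasone set it was 1050 to 1060 CPM untreated and 902 to 932 with the drug. Most of each sum was XBP1, averaging 605 CPM untreated and 616 with prednisolone. In the dexamethasone set XBP1 averaged 793 CPM untreated and 579 with the drug. In each of these groups 2 of the 6 markers averaged under 1 CPM.

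IRF4, a factor of pre-B and plasma cell differentiation, rose from 296, 311 and 300 CPM to 572, 568 and 563 with prednisolone (0.88 ± 0.04) and by 0.73 ± 0.04 with dexamethasone. TCF3 rose by 0.41 ± 0.05 and 0.52 ± 0.05. SPIB, an ETS factor, was low and fell in both, from 1.23, 1.08 and 1.15 CPM to 0.441, 0.418 and 0.409 with prednisolone and from 2.95, 3.11 and 3.23 to 0.393, 0.369 and 0.380 with dexamethasone. EBF1 and BACH2 passed with dexamethasone only (-0.26 ± 0.04 and -0.44 ± 0.04), and IKZF1 and IKZF3 with prednisolone only (-0.20 ± 0.04 and -0.66 ± 0.18). The differences between the drugs were not tested. POU2AF1, the octamer co-activator, did not pass with either.

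All 3 recombination genes rose with both drugs against the untreated groups used. RAG1, which cuts at the recombination signals together with RAG2, rose from 1170, 1200 and 1240 CPM to 1520, 1550 and 1570 with prednisolone and from 1310, 1210 and 1220 to 1610, 1660 and 1570 with dexamethasone. Its log2 change was 0.34 ± 0.04 each time. RAG2 rose by 0.64 ± 0.04 and 0.37 ± 0.04. With prednisolone RAG2 averaged 176 CPM, against 111 CPM in the untreated group used and 170 CPM in the untreated group titled for dexamethasone. DNTT, which adds bases at the joints, rose from 663, 652 and 617 CPM to 772, 741 and 732 with prednisolone, or 0.19 ± 0.04, and by 0.26 ± 0.07 with dexamethasone. RAG1 and RAG2 lie close together on opposite strands, and the counts used were those of the gene's own strand.

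Of the remaining markers, MME fell from 1220, 1240 and 1250 CPM to 787, 788 and 754 with prednisolone (-0.70 ± 0.04) and from 1140, 1040 and 1030 to 593, 614 and 597 with dexamethasone (-0.86 ± 0.05). JCHAIN, the joining chain of secreted IgM and IgA, fell from 0.872, 0.530 and 0.557 CPM to 0.339, 0.114 and 0.171 with prednisolone. In the dexamethasone set it fell from 10.6, 8.03 and 7.78 CPM to 0.763, 1.18 and 1.42 (-3.02 ± 0.18). CD9 fell by 0.45 ± 0.05 with dexamethasone. It fell by 0.14 ± 0.04 with prednisolone, a call lost without untreated library 3 or prednisolone library 1 or 2 (edgeR adjusted p = 0.052 to 0.105).

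Untreated Nalm6 differed between the library sets. JCHAIN was 13.9-fold higher in the untreated dexamethasone set than in the other untreated libraries (log2 3.80 ± 0.18), VPREB3 3.11-fold, SPIB 2.78-fold, POU2AF1 2.43-fold, CD22 2.08-fold and CD79A 2.04-fold. At very low levels, MS4A1 was 8.46-fold and CD40 5.14-fold higher. Of 37 listed genes tested, 27 passed, 22 higher and 5 lower in the dexamethasone set, and the median was 0.24. Over all genes 50.2% passed (25.8% higher and 24.4% lower), with a median of 0.01. The labels give the sets no date or batch. The dexamethasone response above was computed against the untreated libraries titled for it. The prednisolone response assumes that the prednisolone libraries belong with the other untreated group. CD79A averaged 102 CPM with prednisolone, between the untreated means of 60 CPM in that group and 118 CPM in the dexamethasone set. The prednisolone means of VPREB1, VPREB3 and IGLL1 lay below both untreated means, and that of CD79B above both. Those of RAG2 (176 CPM) and CD40 (0.286 CPM) were above 111 and 0.055 CPM in the untreated group used. In the untreated dexamethasone set these genes averaged 170 and 0.266 CPM, and its libraries overlapped the prednisolone ones. TCL1A, at 951 CPM, lay between 855 and 1060 CPM, and CD9, at 415 CPM, between 448 and 358 CPM. Prednisolone was not tested against the untreated dexamethasone set.

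The untreated TLE1 knockout differed from the untreated parental line in 23 of 35 listed genes, 13 higher and 10 lower, where 27.1% of all genes passed (15.3% higher and 11.8% lower). The list's median was 0.08 and its median absolute difference 0.29, against -0.01 and 0.18 over all genes. IKZF3 (Aiolos), an Ikaros-family factor of later B-cell stages, was at 20.4, 21.1 and 18.6 CPM in the knockout and 2.76, 2.26 and 3.03 in the parental line. That was 7.55-fold, or 2.92 ± 0.11 (edgeR adjusted p = 2.43e-07). SPIB was 2.97-fold higher, at 4.10, 3.00 and 3.08 CPM, and JCHAIN 3.21-fold higher, at 1.74, 1.74 and 2.79 CPM. CD37 was lower, at 0.208, 0.153 and 0.193 CPM against 0.549, 0.428 and 0.470. The parental values are from the untreated group without a drug in its title. The untreated group titled for dexamethasone averaged 3.36 CPM for IKZF3, 3.09 for SPIB, 8.81 for JCHAIN and 0.42 for CD37. The knockout averaged 20.1, 3.39, 2.09 and 0.185 CPM. Its difference from the group titled for dexamethasone was not tested.

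At higher levels, the surrogate light chain genes were higher in the knockout, IGLL1 at 817, 814 and 836 CPM (0.43 ± 0.05) and VPREB1 at 242, 234 and 254 CPM (0.29 ± 0.05). VPREB3 was lower, at 7.37, 6.67 and 6.04 CPM (-0.85 ± 0.09). DNTT was lower at 373, 429 and 359 CPM against 663, 652 and 617 (-0.71 ± 0.07, edgeR adjusted p = 9.56e-05), and RAG1 at 925, 958 and 1010 CPM (-0.29 ± 0.05). LYN (0.46 ± 0.05), PLCG2 (0.39 ± 0.06), CD38 (0.47 ± 0.06), FCRLA (0.35 ± 0.07) and TCL1A (0.40 ± 0.05) were higher, and BLNK (-0.41 ± 0.05) and BACH2 (-0.40 ± 0.06) lower. For each gene named in these paragraphs the libraries of the groups compared did not overlap. The untreated group titled for dexamethasone averaged 639 CPM for IGLL1, 252 for VPREB1, 36.6 for VPREB3, 438 for DNTT and 1250 for RAG1. The knockout averaged 822, 244, 6.69, 387 and 965 CPM. For LYN, PLCG2, CD38, FCRLA, TCL1A, BLNK and BACH2 that parental group averaged 50.2, 102, 81.8, 16.6, 1060, 106 and 312 CPM. The knockout averages were 59, 147, 87.8, 18.3, 1110, 57 and 255 CPM.

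The other 7 calls were each lost when 1 library was left out. PAX5 (-0.27 ± 0.07) was lost without untreated parental library 1, 2 or 3 (edgeR adjusted p = 0.0709 to 0.0787), and EBF1 (-0.16 ± 0.05) without any of these or knockout library 1 (0.068 to 0.124). BTK (-0.17 ± 0.05), PIK3AP1 (-0.17 ± 0.05) and CD79B (0.14 ± 0.05) were each lost without any untreated library of either line except knockout library 3, with an edgeR adjusted p up to 0.198. PRDM1 (0.83 ± 0.20) was lost without parental library 1 or knockout library 2 (0.0551 and 0.0622), and TCF3 (0.31 ± 0.07) without parental library 1 (0.0645).

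Prednisolone in the knockout moved 22 of 34 listed genes, 10 higher and 12 lower, where 41.7% of all genes passed (19.8% higher and 21.9% lower). The prednisolone comparisons in the 2 lines share no library. Each of the 21 listed genes with a call in the parental line and in the knockout kept its sign between them, as did 99.3% of the 6000 such genes overall. CD72 rose from 34.7, 27.8 and 33.1 CPM to 103, 98.4 and 94.1, and BLK from 71.9, 66.6 and 60.4 to 131, 144 and 136. VPREB1 fell from 242, 234 and 254 CPM to 159, 143 and 143. RAG2 rose by 0.74 ± 0.08 and RAG1 by 0.41 ± 0.06, and DNTT did not pass (0.01 ± 0.08). The calls of IKZF1 (-0.22 ± 0.06) and IKZF3 (-0.28 ± 0.08) were lost without knockout untreated library 2 or prednisolone library 1 or 2 (edgeR adjusted p = 0.0574 to 0.0892).

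The response itself differed between the lines for 8 of 35 listed genes, 4 higher and 4 lower, against 3.48% of all genes (1.10% higher and 2.38% lower). In all 8 the knockout changed less than the parental line. How many of all genes called did so was not counted, so whether this is particular to the list is not known. PRDM1 rose to 9.13, 8.48 and 8.8 CPM in the knockout from 1.11, 1.41 and 0.995 CPM, where the parental line reached 9.16 to 12.3 CPM. Its log2 change was 2.86 ± 0.14 there and 3.96 ± 0.14 in the parental line, a difference of -1.07 ± 0.22 (edgeR adjusted p = 0.0114). TNFRSF13C was at 34.3, 36.9 and 30.4 CPM untreated and 37.2, 39.2 and 44.6 with prednisolone in the knockout. The log2 change of 0.21 ± 0.09 did not pass, and the difference from the parental response was -0.61 ± 0.10 (edgeR adjusted p = 0.00143).

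CD79A went from 55, 55.1 and 51.3 CPM to 69.0, 65.8 and 68.8 in the knockout, and its response was lower by 0.42 ± 0.09 on the log2 scale than in the parental line (edgeR adjusted p = 0.0145). CD22 fell from 54.9, 52.3 and 49.0 CPM to 18.1, 16.8 and 18.8, a fall smaller by 0.48 ± 0.09 (edgeR adjusted p = 0.00781). The falls of MME, CD38 and FCRLA were smaller by 0.37 ± 0.08, 0.46 ± 0.11 and 0.55 ± 0.13, and the rise of IRF4 by 0.28 ± 0.07. FCRLA was at 17.6, 17.4 and 20.0 CPM untreated and 16.9, 14.6 and 17.6 with prednisolone in the knockout, where its own change did not pass (-0.20 ± 0.10). The differences in response use the untreated parental group without a drug in its title. That group averaged 60 CPM for CD79A and 32.4 for TNFRSF13C, against 118 and 56.4 in the untreated group titled for dexamethasone. Parental cells with prednisolone averaged 102 and 59.3 CPM. For PRDM1, IRF4, CD22, MME, CD38 and FCRLA, both untreated groups lay on the same side of the prednisolone group. The differences against the other untreated group were not tested.

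**Figure D3:**
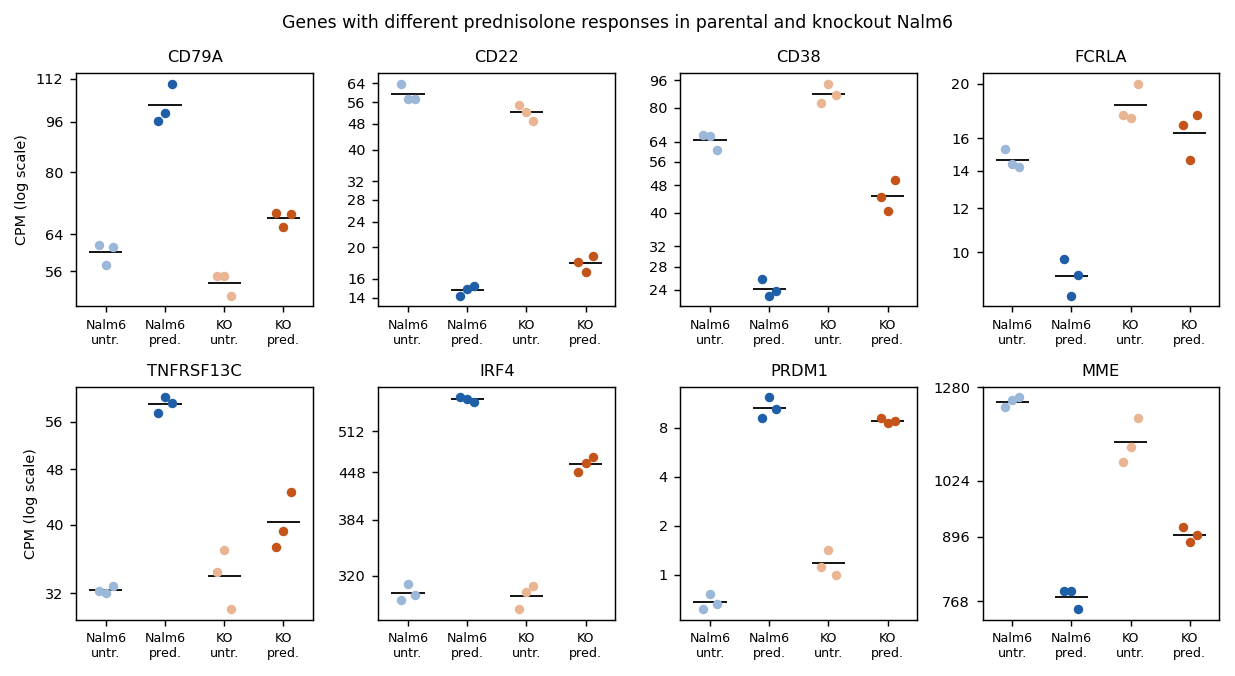
CPM on a log scale in each library (points; line, mean of 3) for the 8 genes whose prednisolone response differed between parental and knockout Nalm6. In each panel the step from untreated to treated is smaller in the knockout, and for TNFRSF13C the untreated points are at 30.4 to 36.9 CPM and the treated knockout points at 37.2 to 44.6.

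How many genes differ in response depended on single libraries. The count of 8 was 5 without parental untreated library 1, 4 without parental untreated library 2, 5 without knockout untreated library 2 and 5 without knockout prednisolone library 3. CD22, TNFRSF13C and MME passed in all 12 fits without a library. IRF4 was lost in 9 of these fits, FCRLA in 8, CD38 in 6 and CD79A in 2, with an edgeR adjusted p up to 0.130, 0.0825, 0.0782 and 0.0572, and PRDM1 in the fit without knockout untreated library 2 (-0.90, 0.0677).

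Dexamethasone in the knockout, set against the untreated knockout libraries, moved 26 of 34 listed genes, 19 higher and 7 lower, where 52.3% of all genes passed (26.0% higher and 26.3% lower). The titles do not say to which library set the untreated knockout belongs, so this contrast may carry the difference between sets, and the subtraction that follows applies only if it does. When the difference between the untreated parental sets was subtracted in the same fit, 26 of 36 passed, 15 higher and 11 lower, and 13 of the rises and 5 of the falls were called both ways. Among all genes 40% then passed. Whether the sets differ by the same amount in the knockout cannot be told apart from the drug response.

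CD72, BLK, IRF4, PRDM1, RAG1, RAG2, TCF3 and PIK3AP1 were among the genes higher in both forms. CD72 stood at 148, 147 and 148 CPM with dexamethasone, and its change was 2.23 ± 0.08 before and 2.08 ± 0.09 after the subtraction. PRDM1, at 4.97, 4.94 and 5.60 CPM, changed by 2.15 ± 0.15 and 1.92 ± 0.24. CD22, PAX5, VPREB1, IGLL1 and IKZF3 were lower in both, CD22 by 0.39 ± 0.06 before and by 1.46 ± 0.09 after.

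By construction, the genes that differed most between the untreated sets changed most with the subtraction. JCHAIN, at 10.7, 11.7 and 12.7 CPM with dexamethasone against 1.74, 1.74 and 2.79, was 2.49 ± 0.17 before and -1.31 ± 0.30 after, both past the threshold. VPREB3 went from 1.72 ± 0.08 to 0.08 ± 0.10 and CD79A from 1.11 ± 0.06 to 0.08 ± 0.09, neither of which passed after. SPIB went from 0.25 ± 0.16 to -1.23 ± 0.20 and POU2AF1 from 0.15 ± 0.09 to -1.14 ± 0.11. FCRLA was higher both ways, at 45.1, 45.9 and 44.7 CPM (1.32 ± 0.07 before and 1.07 ± 0.09 after), and fell in the parental line with dexamethasone (-1.61 ± 0.08). The difference between these responses was not tested.

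**Figure D4:**
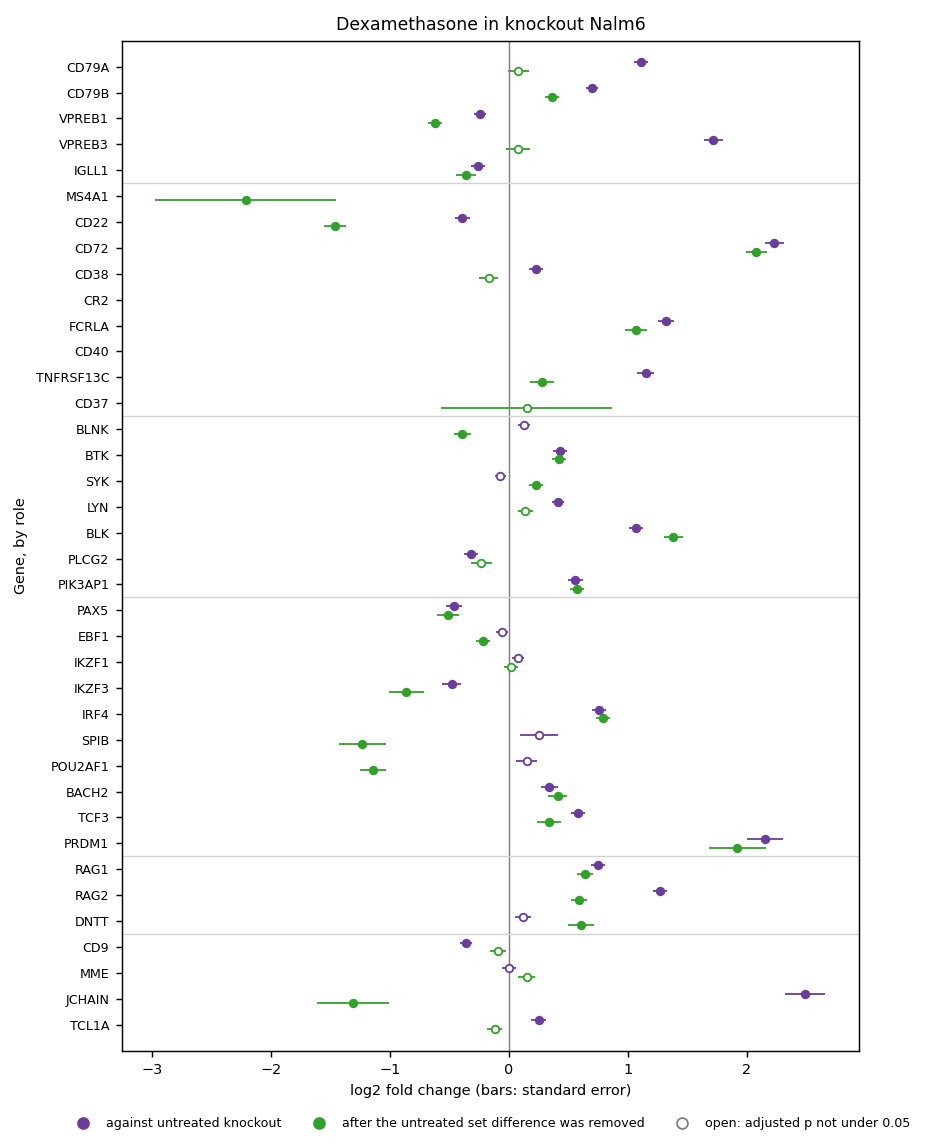
Log2 fold changes with standard errors of the listed genes in the knockout with dexamethasone, against the untreated knockout and after the difference between the untreated parental sets was subtracted, with open points for genes that did not pass. JCHAIN lies at 2.49 before and -1.31 after the subtraction, while CD72, IRF4 and PIK3AP1 change by at most 0.15.

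With CHIR-99021 in the parental line, 10 of 36 listed genes passed (27.8%), 4 higher and 6 lower. Among all genes 7.88% did (3.16% higher and 4.72% lower). The list's median change was -0.04 against -0.01 over all genes. IKZF3 rose from 2.76, 2.26 and 3.03 CPM to 6.11, 5.16 and 4.99 (1.00 ± 0.12, edgeR adjusted p = 0.00115), and JCHAIN from 0.872, 0.530 and 0.557 to 1.87, 1.44 and 1.58 (1.28 ± 0.21). CD79B fell from 129, 133 and 137 CPM to 90.7, 94.4 and 101 (-0.48 ± 0.05), and BACH2, a repressor of PRDM1, from 337, 347 and 341 to 236, 243 and 272 (-0.45 ± 0.05). In all 4 the groups did not overlap. PRDM1, at 0.767, 0.790 and 0.612 CPM, did not pass (0.10 ± 0.19).

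PIK3AP1 (0.26 ± 0.05) and MME (0.21 ± 0.05) rose with CHIR-99021, and RAG1 (-0.28 ± 0.06), CD9 (-0.24 ± 0.05), TCL1A (-0.23 ± 0.05) and SYK (-0.17 ± 0.04) fell. Each of these 6 calls was lost without at least 2 of the 3 untreated libraries, and RAG1 and SYK also without CHIR-99021 library 1 or 2 (edgeR adjusted p = 0.0528 to 0.202). The count of 10 was 5, 4 and 4 without untreated library 1, 2 and 3, and 17 without CHIR-99021 library 3. DNTT was at 488, 542 and 282 CPM against 663, 652 and 617 untreated, with library 3 lowest, and did not pass (-0.55 ± 0.18). The untreated knockout and CHIR-99021 comparisons share the untreated Nalm6 libraries. Their values for IKZF3 were 2.92 and 1.00, for JCHAIN 1.68 and 1.28, and for CD79B 0.14 and -0.48.

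**Figure D5:**
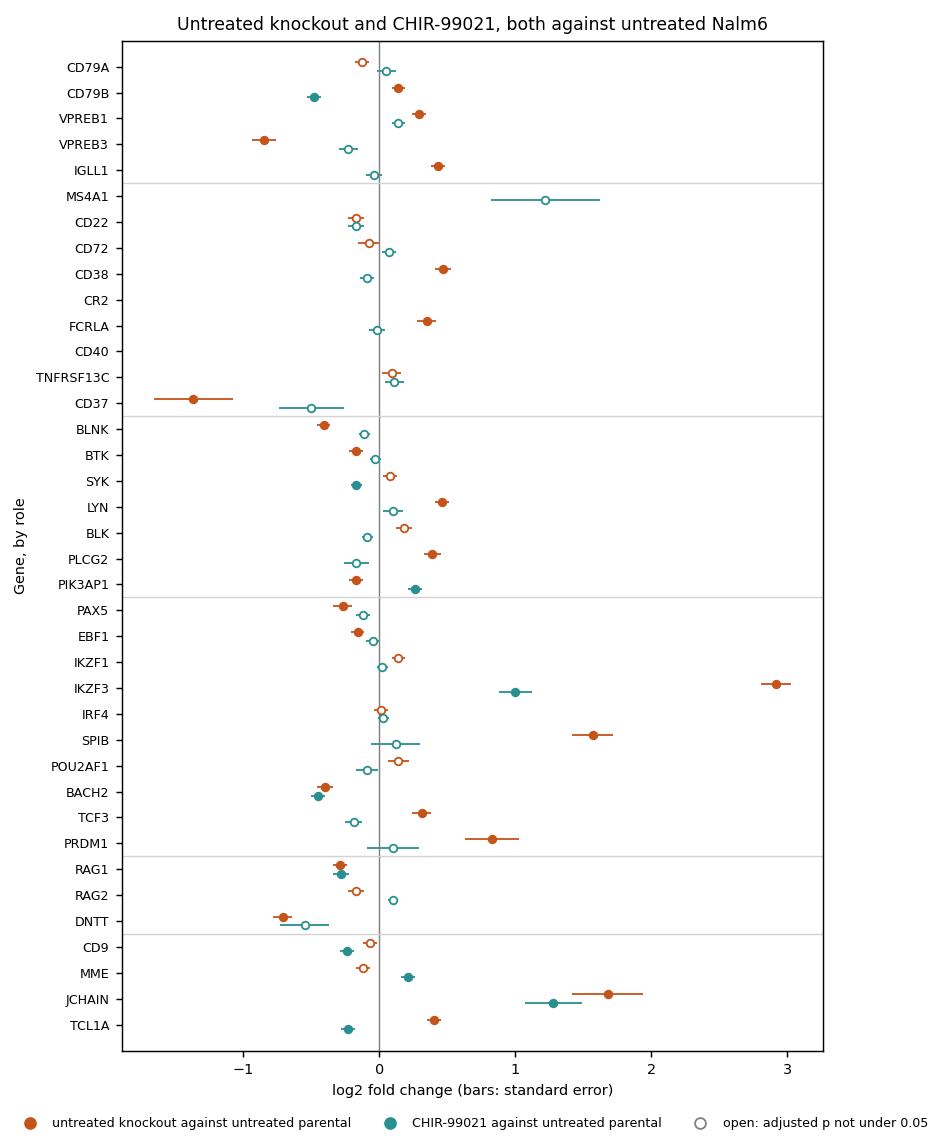
Log2 differences with standard errors of the listed genes for the untreated knockout and for parental Nalm6 with CHIR-99021, both against the same 3 untreated Nalm6 libraries, with open points for genes that did not pass. IKZF3 is the farthest to the right in the knockout at 2.92, and most CHIR-99021 points lie near 0.

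In CEM, prednisolone at 10 µM moved 14 of the 23 listed genes that could be tested, 7 higher and 7 lower, where 45.1% of all genes passed. CD79A rose from 30.2, 29.6 and 31.0 CPM to 60.5, 56.1 and 55.5 (0.90 ± 0.04), and CD72 from 14.0, 12.8 and 13.1 to 17.5, 17.7 and 19.2 (0.42 ± 0.06). RAG1 fell from 418, 393 and 415 CPM to 198, 182 and 186 (-1.14 ± 0.04), and DNTT from 124, 141 and 121 to 86.7, 88.2 and 82.8 (-0.62 ± 0.05). IKZF1 rose from 520, 541 and 535 CPM to 721, 708 and 737 (0.41 ± 0.03).

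The doses differed between the lines, 10 µM in CEM and 5 µM in Nalm6. The response differed for 18 of 37 listed genes, against 26.9% of all genes. In CEM alone 23 listed genes had enough counts to be tested. The 37 therefore include genes with almost no counts in CEM, for which a response there could hardly be seen. RAG1 moved up in Nalm6 and down in CEM, a difference of -1.46, and DNTT likewise, with -0.79. MME fell in Nalm6 and rose in CEM, from 96.0, 93.9 and 101 CPM to 125, 120 and 121, a difference of 1.02. With CHIR-99021 at 2 µM, CEM had RAG1 at 573, 541 and 557 CPM, MME at 186, 167 and 171 and CD79A at 21.6, 21.6 and 21.3, given here as levels only.

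A further 56 genes of B-cell receptor signalling, B-lineage control and recombination that are not in the list were counted in the same fits. With prednisolone 16 rose and 19 fell of 49 tested in the parental line, 71.4% against 54.8% of all genes. With dexamethasone 19 rose and 23 fell of 51, 82.4% against 60.5%. ID3 and ID2, which block E proteins such as that of TCF3, moved apart. ID2 rose from 5.79 ± 0.379 CPM (SD, n = 3) to 22.8 ± 1.64 with prednisolone (log2 1.95 ± 0.08), and ID3 fell from 164 ± 3.44 CPM to 40.8 ± 3.65 (-2.03 ± 0.06). BCL6, a repressor needed at the pre-B stage, fell from 15.0 ± 1.85 to 2.92 ± 0.341 CPM (-2.36 ± 0.11), and the adaptor gene SH3BP2 rose by 1.85 ± 0.05. NFATC1 rose by 0.79 ± 0.06, and CD180, a toll-like receptor homologue of B cells, fell by 1.46 ± 0.10. With dexamethasone the log2 changes were 2.61 for ID2, 2.49 for SH3BP2 and 1.22 for the receptor kinase FLT3, and -2.70 for BCL6, -2.51 for ID3 and -1.76 for CD180.

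Of the same genes, CHIR-99021 raised 3 and lowered 9 of 48, 25% against 7.88% of all genes. The prednisolone response differed between the knockout and the parental line for 3 of 47, 6.38% against 3.48%. In the untreated knockout 9 were higher and 13 lower of 47, 46.8% against 27.1%. Among them were NFATC2 at 9.06 ± 2.50 against 4.52 ± 0.263 CPM (log2 1.03 ± 0.18) and PIK3R1, a regulatory subunit of PI3 kinase, at 174 ± 9.71 against 314 ± 12 CPM (-0.82 ± 0.06, edgeR adjusted p = 1.25e-05). The differences were 0.64 ± 0.09 for IGHD and 0.28 ± 0.07 for ETS1, and -0.95 ± 0.10 for FLT3 and -0.44 ± 0.05 for SH3BP2.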

How the data were processed

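The deposited files hold counts per gene for each of 33 libraries, unstranded and for each strand. The submitters' processing notes name Bowtie2, DESeq2 and the build hg19 with no roles or versions, while the layout of the deposited count files is that of STAR, so the aligner is not settled by the sources used here. The strand column with 12.26 to 15.33 times the counts of the other was used. Rows that name no gene were left out: unmapped reads were 2.844 to 11.16% of a library, multiply mapped reads 4.828 to 7.546%, reads outside genes 18.38 to 32.71% and ambiguous reads 4.697 to 7.449%. Counts were fitted in edgeR 4.0.16 (R 4.3.3, limma 3.58.1) with filterByExpr, TMM scaling, glmQLFit and glmQLFTest over all genes passing the filter, with Benjamini-Hochberg adjustment and a threshold of 0.05. Comparisons used the libraries of their own groups, without a replicate term. CPM are counts per 1000000 counts assigned to genes in that library, without TMM scaling. Fold changes are from the fits. Lengths came from the exons of GENCODE 29, a build other than that of the counts. On simulated counts the fits were checked for recovery of known changes.

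Listed genes were tested in each comparison in which they passed the filter, 23 to 37 of the 38. Of 56 related genes, those named are the 3 largest rises and 3 largest falls that passed with an average log2 CPM of at least 1. The genes, lists and comparisons were chosen with earlier results of these data known. Same-numbered libraries correlated at -0.143 to 0.1 in their deviations, so replicate numbers were not taken to pair libraries. No replicate pair agreed within sampling noise (chi-square per degree of freedom 1.774 to 39.03 over 33 pairs). Alternatives were RLE size factors, DESeq2 1.42.0, no filter on low counts, at least 10 counts in every library, unstranded counts, a replicate block, each library left out in turn, the removal of the set difference and the other untreated set as reference for CEM.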

Additional observations from a re-analysis of the deposited data

Results flagged for a closer look

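The prednisolone response, the log2 change from untreated to treated, was tested for a difference between cell lines in edgeR, and the genes below passed an adjusted p of 0.05. A negative value means a lower log2 change in the line named. In the knockout against the parental line the difference was -1.07 for PRDM1, -0.61 for TNFRSF13C, -0.42 for CD79A and -0.28 for IRF4, all of which rose in the parental line. It was 0.55 for FCRLA, 0.48 for CD22, 0.46 for CD38 and 0.37 for MME, all of which fell there.

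In CEM against parental Nalm6, at different doses, the difference was negative for 12 genes. Of the receptor and co-receptor genes these were CD72 at -1.31, TNFRSF13C at -1.15, CD79B at -0.52 and IGLL1 at -0.45. The value of -3.91 for CD40 rests on 4 counts in untreated CEM and 1 with prednisolone, and its call was lost without Nalm6 untreated library 3, CEM untreated library 3 or CEM prednisolone library 2 or 3 (edgeR adjusted p = 0.0539 to 0.146). The recombination genes gave -1.46 for RAG1, -0.79 for DNTT and -0.67 for RAG2. BLK stood at -0.64, TCF3 at -0.59, PIK3AP1 at -0.58 and BACH2 at -0.35. The difference was positive for CD38 (1.39), VPREB1 (1.14), MME (1.02), IKZF3 (1.00), IKZF1 (0.63) and PLCG2 (0.33).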

How the results depend on the processing

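Counts of listed genes called stayed within 1.5 times in every alternative run except for CHIR-99021, for the knockout's difference in prednisolone response and for CEM. For CHIR-99021 (10 genes) the count was 16 with no filter on low counts and 4 to 17 with a library left out. For the difference in response (8 genes) it was 5 with the replicate block and 4 to 10 with a library left out. Against CEM, 21 of 21 passed when every library had to reach 10 counts, since fewer genes were tested (36 of 36 without that limit). Over all genes, the untreated knockout count of 4655 was 2804, 2847 and 2939 without parental untreated library 1, 2 and 3. The CHIR-99021 count of 1425 was 925 with the replicate block, 2320 with no filter and 409 to 2708 with a library left out. The count for the difference in response, 624, was 346 with the replicate block, 981 with no filter and 361 to 1852 with a library left out. Replicate numbers did not pair the libraries by the check used. Each library correlated best with its own number for parental prednisolone (0.024, 0.1 and 0.061) but also between the untreated sets (0.087, 0.006 and 0.059). With the difference between untreated sets removed, the knockout's dexamethasone change turned sign for BLNK (-0.39), CD38 (-0.17), JCHAIN (-1.31), POU2AF1 (-1.14), SPIB (-1.23), SYK (0.23) and TCL1A (-0.12). No other listed gene with a call in the reported or the alternative fit turned sign. Where no construction is named, the cause was not tested. Genes under about 1 CPM, such as CR2, CD40 and MS4A1, had too few counts for small changes to be detectable.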
